A study of Mus musculus with 12 samples.

Results

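The Sprouty and Spred genes are 7 of the 20989 loci measured in each library of mouse auditory cortex, and were taken by name: Spry1, Spry2, Spry3 and Spry4 for the Sprouty group and Spred1, Spred2 and Spred3 for the Spred group. All 7 had a mean above 1 FPKM (fragments per length of transcript and per fragments sequenced) over the 12 libraries and entered the comparison. The tissue came from acute slices of the brains of 6 mice of the C57bl6/J strain at 4 weeks of age. From each mouse, the hemisphere called control spent 1 h in aCSF (artificial cerebrospinal fluid), and the opposite hemisphere spent 1 h in aCSF with a pharmacological cocktail given to raise neuronal activity. The cocktail held 50 µM bicuculline, 100 µM norepinephrine, 50 µM carbamoylcholine, 100 µM dopamine, 100 µM serotonin and 40 µM ascorbic acid, that is, a blocker of GABA-A receptors, agonists of adrenergic, cholinergic, dopamine and serotonin receptors, and an antioxidant. By the study's methods all slices then rested for a further 1 h in aCSF without drugs, so the controls share the cutting, the recovery and this rest. The comparison asks which transcripts differ after the cocktail.

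Sprouty and Spred proteins are intracellular inhibitors of signalling from receptor tyrosine kinases through Ras and Raf to the kinases MEK and ERK. They share a cysteine-rich Sprouty domain at the C-terminal end, which brings them to membranes. Spred proteins also carry an EVH1 domain, through which they bind neurofibromin, a GTPase-activating protein that switches Ras off. Sprouty genes are known as negative feedback genes, because ERK signalling in many tissues raises their transcription, and in neurons ERK is activated by neurotrophins and by calcium entry.

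The annotation separates the groups. Each of the 4 Sprouty transcripts has 1 coding exon, with 939, 945, 864 and 900 coding bases for Spry1, Spry2, Spry3 and Spry4. The coding sequence of Spred1, Spred2 and Spred3 is spread over 7, 6 and 5 exons, with 1332, 1230 and 1224 coding bases. In mm10 coordinates, Spry1 lies at chr3:37639950-37644599 and Spry2 at chr14:105891947-105896819. Spry3 is placed on an unlocalized scaffold of the X chromosome, from 101352 to 106392. Spred1 lies at chr2:117121071-117182277, Spred2 at chr11:19924442-20022597 and Spred3 at chr7:29158829-29168647.

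Promoter sequence from RefSeq (GRCm38.p6, the same coordinates as mm10) was matched for 5 of the 7 members, Spry1, Spry2, Spred1, Spred2 and Spred3. The 250 bases before the start site are shown for Spry2 and Spry1, which rose in the cocktail, and for Spred1, which lies next to Spry2 in level. They are written 5′ to 3′ on the strand of the gene. Capitals mark matches, on either strand, to the GC box GGGCGG or the CCAAT box CCAAT.
Spry2 promoter: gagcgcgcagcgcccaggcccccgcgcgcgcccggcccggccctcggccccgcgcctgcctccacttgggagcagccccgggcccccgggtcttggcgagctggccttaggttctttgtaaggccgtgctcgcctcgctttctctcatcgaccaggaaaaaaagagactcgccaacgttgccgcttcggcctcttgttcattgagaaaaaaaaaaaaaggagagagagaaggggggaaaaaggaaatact
Spry1 promoter: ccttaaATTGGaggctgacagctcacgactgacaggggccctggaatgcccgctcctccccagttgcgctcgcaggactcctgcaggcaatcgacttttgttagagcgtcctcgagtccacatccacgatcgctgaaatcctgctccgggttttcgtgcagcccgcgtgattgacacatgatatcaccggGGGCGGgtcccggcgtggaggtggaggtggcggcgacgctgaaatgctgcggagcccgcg
Spred1 promoter: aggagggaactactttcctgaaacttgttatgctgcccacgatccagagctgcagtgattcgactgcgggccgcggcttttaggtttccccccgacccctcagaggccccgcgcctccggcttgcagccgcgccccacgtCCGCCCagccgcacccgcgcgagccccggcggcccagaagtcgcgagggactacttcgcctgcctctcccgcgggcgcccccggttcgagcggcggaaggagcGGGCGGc
The Spry2 sequence is chr14:105896820-105897069 on the minus strand, the Spry1 sequence chr3:37639697-37639946 on the plus strand, and the Spred1 sequence chr2:117120821-117121070 on the plus strand.

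The Spry1 and Spry2 promoters had the same GC content, 62.4%, and 23 CpG dinucleotides each. Spred1 was richer, with 70.8% GC and 31 CpG, while Spred2 had 56% and 12 and Spred3 had 55.6% and 6. The median over the 32851 promoters in the table was 52.4% GC. CpG dinucleotides were 0.946 and 0.947 of the number their base content predicts in Spry1 and Spry2. The values were 1.0 in Spred1, 0.613 in Spred2 and 0.321 in Spred3, against a median of 0.373. The GC box, the site of Sp1 family factors, matched 1 time in Spry1, 2 times in Spred1, 1 time in Spred2, 3 times in Spred3 and not in Spry2, and 32.7% of all promoters hold it. The CCAAT box matched in Spry1 among the 5 members, and 33.8% of all promoters hold it. The cyclic AMP response element TGACGTCA (1.55% of promoters), the AP-1 site TGANTCA (6.75%), the Egr site GCGNGGGCG (4.7%), the serum response element (1.47%), the ETS core CCGGAA (12%) and the TATA box TATAAA (12.4%) matched none of the 5. The shorter form TGACG (17.8% of promoters), which lies within the cyclic AMP response element, matched in Spred2. A missing match says only that these letters do not stand in this window.

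Spry2 was the member with the largest difference between the groups. It encodes the most studied Sprouty protein, which binds the ubiquitin ligase Cbl and the adaptor Grb2. In control slices its level was 25.97, 35.79, 30.97, 31.62, 35.72 and 33.15 FPKM in mice 1 to 6, and in the opposite hemispheres after the cocktail it was 49.93, 54.75, 46.06, 48.5, 45.02 and 42.41 FPKM. The lowest cocktail library lay above the highest control library. The mean rose from 32.2 ± 3.66 (SD, n = 6) to 47.8 ± 4.32 FPKM (SD, n = 6), a ratio of 1.48. The log2 fold change was 0.56 with a standard error of 0.07 (95% interval 0.41 to 0.71, limma adjusted p = 0.00108). Within mice the difference on the log2(FPKM + 1) scale was 0.33 to 0.92, and higher in 6 of 6 mice. With the signs of the 6 differences flipped in every way (exact permutation test, two-sided), p was 0.03125, the smallest value 6 mice allow. The value rested on 750 to 1850 reads per library. Of the 12032 loci tested, 48 had a larger log2 fold change. In bulk tissue, more cells of a type and more RNA per cell cannot be told apart, and the cells that carry these transcripts were not resolved.

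Spry1, which like Spry2 limits Ras activation downstream of growth factor receptors, had a lower level. Control slices had 4.35, 5.5, 5.954, 5.887, 5.747 and 5.812 FPKM in mice 1 to 6, and cocktail slices had 6.913, 6.112, 7.871, 8.484, 8.128 and 6.283 FPKM. The groups did not overlap, but the highest control library and the lowest cocktail library were close. Means were 5.54 ± 0.605 (SD, n = 6) and 7.3 ± 1 FPKM (SD, n = 6), a ratio of 1.32, and the log2 fold change was 0.34 with a standard error of 0.07 (95% interval 0.19 to 0.49, limma adjusted p = 0.0338). The gain was uneven, from 0.096 in mouse 6 and 0.13 in mouse 2 to 0.565 in mouse 1 on the log2(FPKM + 1) scale, with 6 of 6 mice higher and a sign-flip permutation p of 0.03125. Between 130 and 252 reads stood behind each value. The Spry1 call did not hold without mouse 1, 3, 4 or 5, with limma adjusted p from 0.072 to 0.157 and log2 fold changes from 0.3 to 0.34. It was also lost without the pairing by mouse (adjusted p = 0.116), with all loci tested (0.124) and with voom on recovered reads (0.0847). Over 710 bases its exons overlap those of Gm42922, an unclassified transcript on the opposite strand. The libraries were strand-specific, but whether the FPKM estimate used strand is not given in the sources used here.

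Spry4, an inhibitor that acts upstream of Ras and Raf, was higher in the cocktail hemisphere of all 6 mice but did not pass the threshold. Control values were 6.005, 7.375, 7.143, 5.805, 6.656 and 6.432 FPKM in mice 1 to 6, and cocktail values were 9.385, 8.923, 8.164, 7.899, 7.657 and 7.146 FPKM. The groups overlapped, since the cocktail value of mouse 6 lay below the control value of mouse 2. Means were 6.57 ± 0.618 and 8.2 ± 0.828 FPKM (SD, n = 6 each), with a ratio of 1.25. The log2 fold change was 0.28 with a standard error of 0.06 (95% interval 0.14 to 0.42, limma unadjusted p = 0.00109, adjusted p = 0.068). With median-of-ratios scaling between libraries the adjusted p was 0.0383, and with quantile normalization 0.0427, and the log2 fold change was 0.27 under both. The sign-flip permutation test gave p = 0.03125, again the smallest possible, and 283 to 680 reads stood behind each value.

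Spry3, the least abundant of the 7 and little studied, did not pass the threshold. Its FPKM ran from 3.249 to 4.493 in control slices (median 3.808) and from 3.601 to 4.27 in cocktail slices (median 3.84). The log2 fold change was -0.0035 (95% interval -0.14 to 0.14, adjusted p = 0.994), and 3 of 6 mice were higher. With 139 to 247 reads per library, its depth was like that of Spry1. The interval leaves room for a change of the size of the lowest within-mouse gains of Spry1, and its upper bound lies below the fitted change of Spry1.

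**Figure D1:**
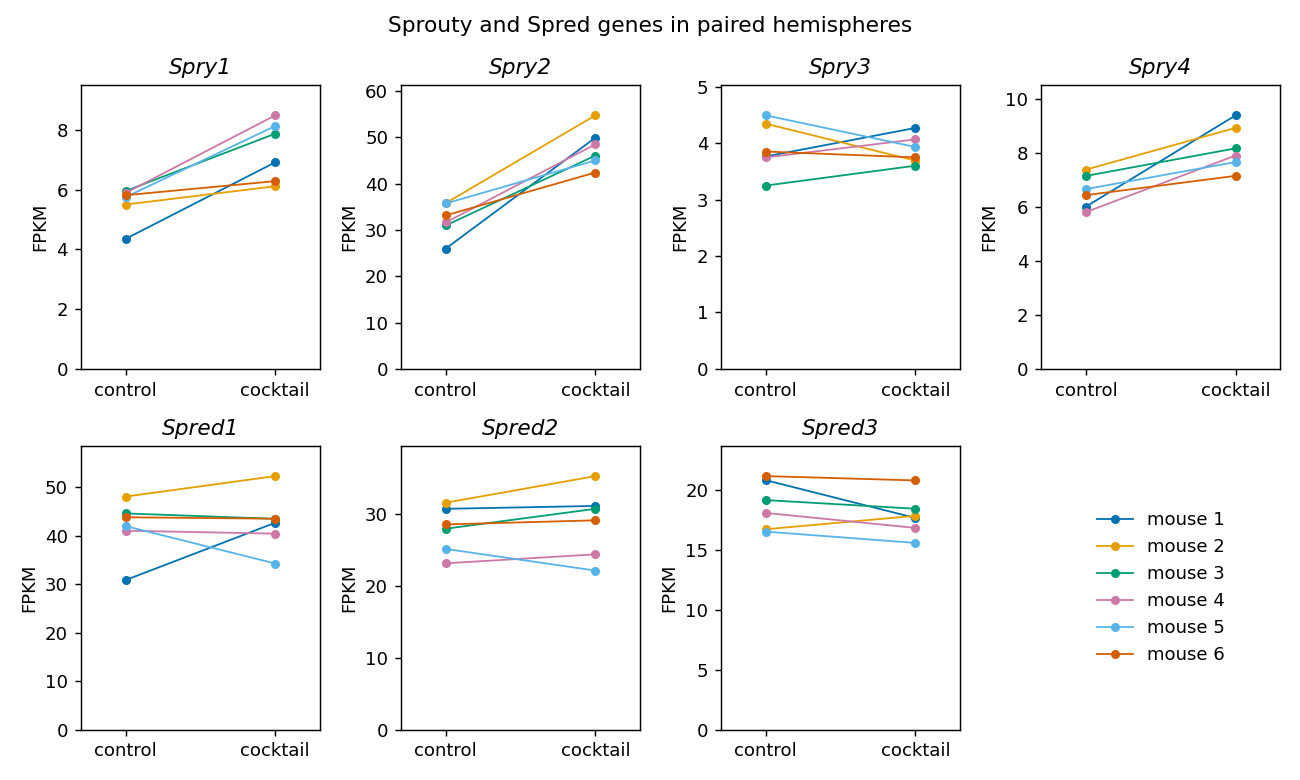
FPKM of the 7 genes (vertical axes, from 0) in the control and the cocktail hemisphere, with 1 line for each of the 6 mice. All 6 lines rise for Spry1, Spry2 and Spry4, while lines of the other 4 genes go both ways.

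None of the 3 Spred genes passed the threshold in either direction with limma or with voom on recovered reads. With limma, 0 of the 3 had an unadjusted p under 0.05. Over all loci tested, limma called 1.5%, and 8.05% had an unadjusted p under 0.05, so counts of 0 among 3 genes are near these shares. Spred1, whose loss of function in humans causes Legius syndrome, was the most abundant member in control slices. It had 30.88 FPKM in control mouse 1 and 41.07 to 48.11 FPKM in the other 5 control libraries, against 34.3 to 52.34 FPKM in cocktail slices (median 43.12). Means were 41.8 ± 5.86 and 42.8 ± 5.83 FPKM (SD, n = 6 each). The log2 fold change was 0.04 with a standard error of 0.08 (95% interval -0.13 to 0.20, adjusted p = 0.946). Only 2 of 6 mice were higher, mouse 1 by 0.455 and mouse 2 by 0.119 on the log2(FPKM + 1) scale, and without mouse 1 the log2 fold change was -0.05.

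Spred2, a widely expressed member that also binds neurofibromin, had 23.14 to 31.57 FPKM in control slices (median 28.25) and 22.13 to 35.27 FPKM in cocktail slices (median 29.92). It was higher in 5 of 6 mice, by at most 0.155, and lower by 0.177 in mouse 5, on the log2(FPKM + 1) scale. The log2 fold change was 0.04 with a standard error of 0.05 (95% interval -0.07 to 0.15, adjusted p = 0.911), and with voom on recovered reads it was -0.00801.

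Spred3, which is known from brain and lacks a working c-Kit binding domain, had 16.51 to 21.14 FPKM in control slices (median 18.61) and 15.57 to 20.78 FPKM in cocktail slices (median 17.74). Its log2 fold change was -0.07 with a standard error of 0.05 (95% interval -0.18 to 0.05, adjusted p = 0.84), and 1 of 6 mice was higher. Exons of Spred3 share 202 bases with Ggn, a protein coding gene on the opposite strand. The upper bounds of the Spred2 and Spred3 intervals, 0.15 and 0.05, lay below the lower bounds of Spry2, 0.41, and Spry1, 0.19. That of Spred1, 0.20, lay above the lower bound of Spry1, and that of Spred2 lay above the lower bound of Spry4, 0.14. The sign-flip permutation test gave p = 0.75, 0.4375 and 0.1875 for Spred1, Spred2 and Spred3, and 0.96875 for Spry3.

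**Figure D2:**
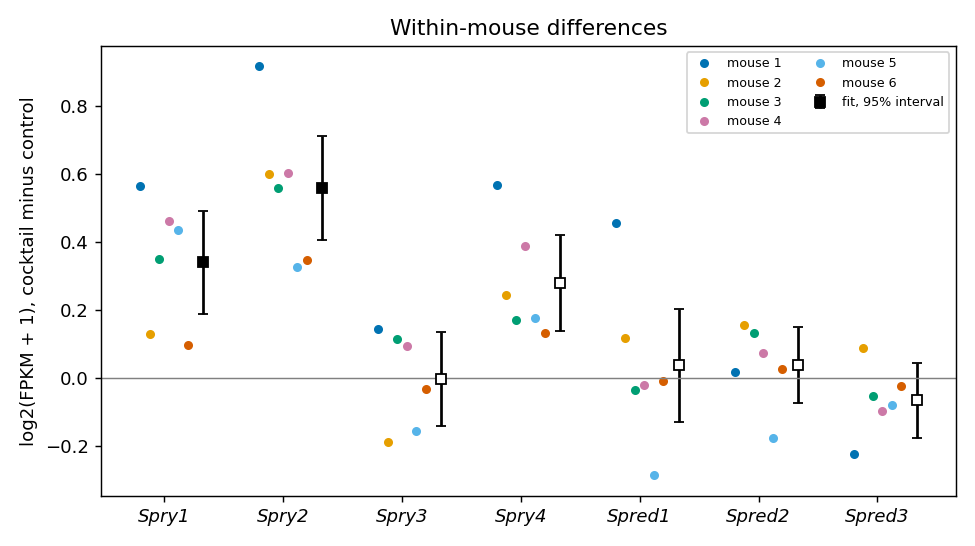
Difference in log2(FPKM + 1), cocktail minus control, for each gene (horizontal axis), with 1 coloured point per mouse and a square for the limma estimate with its 95% interval, filled where the adjusted p is under 0.05. The squares of Spry1 at 0.34 and Spry2 at 0.56 are filled, and mouse 1 is the highest point for Spry1, Spry2, Spry3, Spry4 and Spred1.

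Across the 7 genes, 2 were called, both higher, against 1.5% of the loci tested called in either direction (180 of 12032) and 1.22% called higher (147). The groups did not overlap for 2 of the 7, while 0.715% of loci had cocktail libraries all above the control libraries. In 3 of the 7 genes all 6 mice were higher, against 3.64% of loci. The median log2 fold change of the 7 was 0.04, beside 0.01 over all loci tested. In each of the 6 mice the difference of Spry2 was larger than those of Spry3, Spry4, Spred1, Spred2 and Spred3, and it was larger than that of Spry1 in 5. The difference of Spry4 exceeded those of Spry3 and of each Spred gene in 6 of 6 mice. For Spry1 this held against Spry3, Spred1 and Spred3 in 6 mice and against Spred2 in 5. These differences between members were counted and not tested.

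Levels can be set side by side because FPKM is per length of transcript. In control slices the order was Spred1, Spry2, Spred2, Spred3, Spry4, Spry1 and Spry3. Spred1 stood above Spry2 in 6 of 6 control libraries and Spry2 above Spred2 in 5, with overlapping ranges in both cases. Spred2 was higher than Spred3, and Spred3 higher than Spry4, in every control library without overlap. Spry4 exceeded Spry1 in 5 libraries, and Spry1 exceeded Spry3 in 6, with overlapping ranges in both cases. After the cocktail Spry2 stood first, above Spred1 in 5 of 6 libraries, where it had been above Spred1 in 0 of 6 control libraries. The order of the other members stayed as in control slices, with Spry4 above Spry1 in 4 of 6 libraries.

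**Figure D3:**
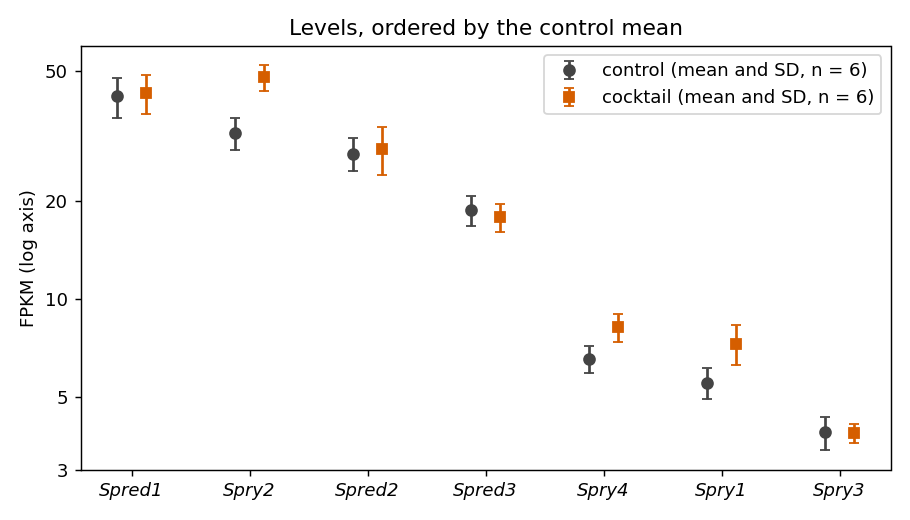
Mean FPKM (log axis) with SD over 6 libraries for control (circles) and cocktail (squares) slices, ordered by the control mean. Spry2 goes from the second place at 32.2 FPKM to the first at 47.8, above Spred1 at 42.8.

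The share of Spry2 in the summed FPKM of the 7 genes was 21.2% to 26.2% in control slices (median 23.6%) and 27.7% to 32.9% in cocktail slices (median 30.7%), so the groups did not overlap. The 4 Sprouty genes made up 32.7% to 38.6% of the sum in control slices (median 35.0%) and 38.9% to 47.3% in cocktail slices (median 42.5%). Spry2 is part of this share, and the share of the other Sprouty genes without it was not computed. The sum itself was 122 to 149 FPKM in control and 137 to 179 FPKM in cocktail libraries. These shares do not depend on the scaling of a library, since all 7 genes share it.

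The spread between libraries was larger than counting error for most members. Spry2 varied by 11.3% of its mean in control and 9.03% in cocktail slices, where counting its reads gives 3.09% and 2.6%. Spred1, the most deeply covered with 2762 to 4767 reads, varied by 14% and 13.6%, against 1.74% and 1.6%. For Spry3 in cocktail slices the spread, 6.51%, was within the counting error of 7.05%. In the lowly expressed Spry1, counting error was 7.46% and 6.48% of the mean, beside a spread of 10.9% and 13.7%.

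The neighbours of the family in the pathway were described from lists of 107 genes. Of these, 98 were tested and 9 were called, all 9 higher in the cocktail. Over all loci tested, 1.5% were called in either direction and 1.22% were called higher. Without the pairing by mouse 4 were called, and 5 with all loci tested or without mouse 4. Among receptor tyrosine kinases and growth factor ligands, 2 of 24 were called higher, both of them ligands, and the median log2 fold change was 0.05. Bdnf, the neurotrophin that activates TrkB, went from 13.6 ± 3 to 17.7 ± 4.31 FPKM (SD, n = 6 each, log2 fold change 0.35, adjusted p = 0.0338). Hbegf, a ligand of the EGF receptor, went from 7.75 ± 1.29 to 9.45 ± 1.13 FPKM (log2 fold change 0.26, adjusted p = 0.0429). Both were higher in 6 of 6 mice with overlapping groups.

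Between the receptors and the ERK targets, 0 of 52 genes tested were called by limma and 0 by voom on recovered reads, and 4 had an unadjusted p under 0.05. Both counts are near those of all loci tested, of which 1.5% were called and 8.05% had an unadjusted p under 0.05. This covers the adaptors, exchange factors and Ras proteins (22 genes), the Ras GTPase-activating proteins (8 genes) and the cascade from Raf to ERK with its kinases and ternary complex factors (22 genes). The median log2 fold changes were 0.0007, -0.0071 and 0.0007. The largest values were -0.16 for Rras, a Ras-related GTPase among the Ras proteins (adjusted p = 0.621), and, in the cascade, 0.18 for Elk4, a ternary complex factor (adjusted p = 0.371). Srf, the serum response factor, was the only gene of the 52 whose groups did not overlap. It had 22.67 to 25.44 FPKM in control and 26.15 to 29.2 FPKM in cocktail slices. Its log2 fold change was 0.18 (limma unadjusted p = 0.00344, adjusted p = 0.148), with 6 of 6 mice higher, and it was not called. Over all loci tested, cocktail libraries all lay above control libraries in 0.715%, and all 6 mice were higher in 3.64%. Among 12 proteins known to bind or modify Sprouty or Spred proteins, 1 was called, beside 1.5% of all loci tested. This was Siah2, a ubiquitin ligase that targets Spry2 for degradation, which went from 18.4 ± 1.57 to 23.9 ± 3.41 FPKM (SD, n = 6 each, log2 fold change 0.35, adjusted p = 0.0108).

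Of 9 other inhibitors of receptor or ERK signalling, 5 were called higher, against 1.22% of all loci tested. The median log2 fold change of the 9 was 0.44. Dusp6, the phosphatase that inactivates ERK in the cytoplasm, rose from 85.6 ± 7.28 to 152 ± 12.6 FPKM (SD, n = 6 each, log2 fold change 0.82, adjusted p = 2.92e-05). Dusp5, a nuclear ERK phosphatase, rose by 0.81 and Dusp1, a phosphatase of p38, JNK and ERK, by 0.76 on the log2 scale, with adjusted p of 1.75e-05 for both. Errfi1, a feedback inhibitor of the EGF receptor, rose by 0.53 (adjusted p = 0.0081) and Dusp4 by 0.44 (adjusted p = 0.00442). Dusp1, Dusp5, Dusp6 and Errfi1 did not overlap between groups, whereas Dusp4 did. Over all loci tested, cocktail libraries all lay above control libraries in 0.715%. The 4 other genes of this list had log2 fold changes of -0.073 to 0.067. Of 8 genes used as readouts of ERK activity, 3 were called higher, again against 1.22% of all loci tested. These were Dusp6 and Dusp4, which stand in both lists, and Phlda1 (log2 fold change 0.29, adjusted p = 0.0195). The median of the 8 was 0.12. The other 5 were not called, with log2 fold changes of 0.17 for Epha2 (adjusted p = 0.398, 6 of 6 mice higher), 0.07 for Ccnd1, 0.03 for Etv5, -0.05 for Epha4 and -0.06 for Etv4.

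**Figure D4:**
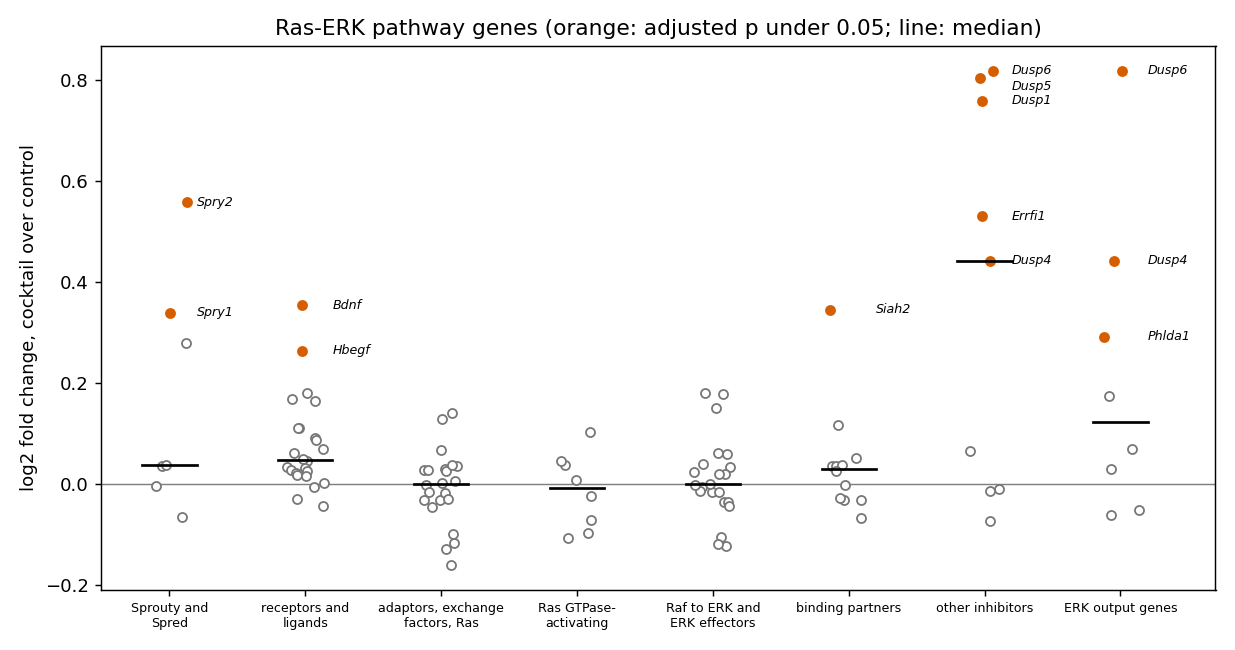
Log2 fold change, cocktail over control (vertical axis), of each tested gene in the family and in 7 pathway lists (horizontal axis), with a line at each median and orange for an adjusted p under 0.05. Called genes stand in the family, the receptors and ligands, the binding partners, the other inhibitors and the ERK output genes, up to Dusp6 at 0.82. The lists from adaptors to the ERK cascade hold 0 of 52, beside 1.5% of all loci tested.

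Patterns over the 12 libraries were compared by Pearson's r of log2(FPKM + 1), as a description, since the libraries share the treatment and the mice. The loci most like Spry2 were Ifrd1 (r = 0.949), Rgs4 (0.942) and Tiparp (0.939). Ifrd1 is a transcriptional coregulator induced by growth factors, Rgs4 a regulator of G protein signalling and Tiparp a mono-ADP-ribosyltransferase, and their own log2 fold changes were 0.67, 0.31 and 0.80. Among those nearest to Spry1 were Actg1, a cytoplasmic actin (r = 0.957), and Rbm7, an RNA-binding protein (0.921). The closest locus was Vwa3a for Spry3 (0.916), Unc5d, a netrin receptor, for Spred1 (0.959), Dnajb5, a heat shock co-chaperone, for Spred2 (0.951) and Zfhx2, a homeobox factor, for Spred3 (0.951).

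In the untranslated 3′ end, the pentamer ATTTA, the core of AU-rich elements that shorten the life of many early response transcripts, stood at 2.34 per kilobase in Spry2, 1.97 in Spry4 and 1.91 in Spry1. Spred1 had 2.77, Spred3 1.11 and Spred2 0.885, and the median was 1.38 over 11119 genes with an annotated 3′ end. No value was obtained for Spry3, so the Sprouty values do not cover the whole group. Spred1, which was not called, held the pentamer more densely than Spry1 and Spry2. A link between the pentamer and the response to the cocktail was not tested.

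As a check of the treatment, the activity-regulated genes Fos, Fosb, Junb, Arc, Egr1, Nr4a1 and Npas4 were all called higher, with log2 fold changes of 0.55 to 0.99. Such genes were also picked by the study on these libraries, so this is not independent evidence. Recovered reads on annotated loci came to 10601067 to 19768881 in control and 13544297 to 17643462 in cocktail libraries. Control mouse 1 stood apart, with a median over loci 0.144 lower on the log2 scale than the reference of all libraries, and the other 11 libraries lay within 0.06. Without mouse 1, the log2 fold change was 0.49 for Spry2 (limma adjusted p = 0.000569), 0.3 for Spry1 (0.072) and 0.22 for Spry4 (0.0896). Of 52 marker genes for 12 cell types or neighbouring regions, 47 were tested and 0 were called by limma or by voom. Of the 47, 1 had an unadjusted limma p under 0.05, and log2 fold changes ran from -0.20 to 0.17. Over all loci tested, limma called 1.5%, and 8.05% had an unadjusted p under 0.05. Summed excitatory neuron markers stood at 2430 to 2770 FPKM in control and 2310 to 2740 FPKM in cocktail slices, and choroid plexus markers at most at 1.17 FPKM. All 5 oligodendrocyte markers were higher in the cocktail, by 0.07 to 0.16 on the log2 scale, as were all 5 inhibitory neuron markers, by 0.03 to 0.10. All 3 striatum markers were lower, with a median of -0.16. The part of these differences in the Sprouty values was not tested.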

How the data were processed

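Poly-A RNA of auditory cortex from 6 control and 6 cocktail hemispheres was sequenced by the authors as single, strand-specific reads on the same lane. The authors removed ribosomal reads with BWA 0.6.1, aligned the rest to mm10 with TopHat 1.4.1, keeping 1 placement per read, and used Cufflinks 1.3.0 to estimate FPKM, with bias correction and relative to all fragments on RefSeq genes that code for protein. These FPKM values were used as deposited. Their intervals span 2 Poisson standard deviations, from which the reads behind each value were recovered (82.8% of 36412 values under 20 reads were whole to within 0.05), and depth was taken from these reads. The table of the authors' own comparison (mean counts, fold changes, statistics, p-values and group FPKM means) was not used.

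In R 4.3.3, log2(FPKM + 1) was fitted by limma 3.58.1 for loci with a mean of at least 1 FPKM, with mouse as a block, a variance trend and Benjamini-Hochberg adjustment over 12032 loci at 0.05. Every adjusted p is from this fit unless named otherwise. For low genes the pseudocount of 1 makes fold changes too small. The libraries were paired by the mouse given in the labels. Deviations from the group means had a correlation of 0.216 to 0.406 in the 6 pairs (median 0.337) and of -0.42 to 0.445 between different mice (30 pairs, median -0.0714). No library was a copy of another, since the chi-square per gene was at least 7.8. The fit was tested on simulated data. Members and lists were chosen with earlier results of these data known. All members are named, with the called genes of each pathway list, or else its gene of largest change, and the loci most like each member; a few genes under this rule are not reported here. The genes Srf, Epha2, Ccnd1, Epha4, Etv4 and Etv5 and, for the exon overlaps, Gm42922 and Ggn were named outside this rule after their values were seen. Exons, overlaps and 3′ ends are from GENCODE M21. Alternatives were no block, other filters, pseudocounts, scalings and thresholds, voom on the recovered reads, and leaving out each mouse. Intervals cover the spread between these mice, and read numbers cover counting error only. Plots were made in Python 3.11.15 with matplotlib 3.10.9.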

Additional observations from a re-analysis of the deposited data

Results flagged for a closer look

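The level of Spry1 in control mouse 1, 4.35 FPKM, stood apart from the other 5 control libraries, which lay between 5.5 and 5.95 FPKM. The gap was 0.717 of the range of the group. It is the control library whose median over loci was 0.144 lower on the log2 scale, and the part of this in the Spry1 value was not tested. Chance alone gives such a gap in about 1 in 20 groups, which is 1.05 of the 21 groups of 6 examined, and 1 was found.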

How the results depend on the processing

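Spry2 was called in all 15 refits, with log2 fold changes of 0.486 to 0.605 and adjusted p of 0.000335 to 0.0145. Spry1 was called in 8 of 15 and Spry4 in 2 of 15, and Spry3 and the Spred genes in 0. Without the replicate block, 88 loci, 4 pathway genes and 1 member were called, and Spry1 at 0.34 was not. With no filter on low values, 5 pathway genes and 1 member were called, and Spry1 at 0.34 was not. With voom on the recovered reads, 118 loci and 1 member were called, Spry1 at 0.334 was not, and the log2 fold changes of Spry3 (0.0544) and Spred2 (-0.00801) had the opposite sign. Spry4 passed after quantile normalization (0.265), after median-of-ratios scaling (0.272) and at an adjusted p of 0.1 (0.28). Leaving out each mouse in turn gave 104 (without mouse 4) to 181 loci, 5 (without mouse 4) to 8 pathway genes and 1 to 2 members called. The log2 fold changes then were 0.295 to 0.389 for Spry1, which was not called without mice 1, 3, 4 or 5, -0.0333 to 0.0334 for Spry3, above 0 without mice 2, 5 or 6, and -0.0467 to 0.102 for Spred1, which was below 0 without mouse 1. Spry2 ranked 2 in control and 1 in cocktail libraries. A minimum of 5 FPKM leaves no value for Spry3. The causes were not tested. At 130 to 252 reads per library, counting error limits Spry1 and Spry3 most.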
